A study of Caenorhabditis elegans with 4 samples.

Results

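The X chromosome of Caenorhabditis elegans carried 947 of the 9051 regions of RNA polymerase II (Pol II) binding that were listed from whole animals of the third larval stage, L3. The members are every line of the list called on the merged replicates, the combined list, that lies on X. They were set beside the lines on chromosomes II (1016), III (1912), IV (2111) and V (983) of the same list. They were also set beside the X lines of the lists called on each replicate alone, which numbered 756 of 7359 in replicate 1 and 793 of 7115 in replicate 2 (774.5 ± 26.2, SD, n = 2). Positions are in the WS220 build.

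The study collected 2 Pol II chromatin immunoprecipitation (ChIP) samples and 2 input samples, that is sheared chromatin with no immunoprecipitation, from hermaphrodites kept at 20 °C. All 4 samples share a genotype, so no comparison of strains or treatments exists. Per the labels the animals were of strain OP54, unc-119(ed3) III with the integrated transgene wgIs54, which carries a wild-type unc-119 copy and an egl-5 gene tagged with TY1, EGFP and 3xFLAG. The description speaks of an EOR-1 fusion in place of egl-5 and the strain in the deposited sample table is OP81, so the identity of the transgene is uncertain. The antibody 8WG16 binds the heptapeptide repeats that form the tail of the largest Pol II subunit, AMA-1, and not the tagged protein. Whole animals mix somatic and germline nuclei, so Pol II held by few nuclei or weakly by many cannot be told apart at any region. The labels do not say that the replicates came from separate cultures, so the spread between them may be technical.

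Hermaphrodites carry a pair of X chromosomes and males carry a single one. In the soma of hermaphrodites a condensin-like dosage compensation complex binds along both X chromosomes and lowers their transcription, and in germ cells the X is largely silent for much of development. Autosomes of this species have repeat-rich arms and gene-dense centres, a division that is weaker on X, and operons, in which several genes share a promoter, are scarce on X. This is background and was not measured here.

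Pol II ChIP replicate 1 held 3262273 uniquely mapped reads of 36 bases and replicate 2 held 4623128, and the inputs held 1912753 and 1414731. Although it had fewer reads, replicate 1 gave the larger covered length on X, 1.10 Mb against 0.711 Mb in replicate 2. The ratio of these lengths was 1.54 on X and 1.42 to 1.55 on chromosomes II to V. Each listed region has a PeakSeq q-value below 0.01, where a lower q means a stronger excess of ChIP over input reads. Places that missed this limit are not in the lists.

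The end of the last listed region stands for the end of X here, so the distance from it to the true chromosome end was not measured. The first combined X region lay at 59211 to 59405 and was 195 bp wide (q = 6.65e-04), and the last at 17714295 to 17714712 was 418 bp wide (q = 2.73e-05). The first one was met again in replicate 2, at 59226 to 59415, while the X list of replicate 1 began at 299143. The last overlapped no region of either replicate, and it is also 1 of 3 combined X regions whose internal structure had changed in the authors' conversion of the coordinates from an older build. Those of 7436479 to 7440001 and 7984890 to 7989757 overlapped regions of both replicates.

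In most full windows outside 5 to 15 Mb Pol II cover of X was lower than inside. In the combined list the 10 windows of 1 Mb from 5 to 15 Mb were covered to between 6.70% and 9.12% of their bases, with a mean of 7.77%. The other 7 full windows had a mean of 4.91%, and 1 of them, 2 to 3 Mb, reached 7.70%. The shorter last window, 17000001 to 17714712, was not among these and was covered to 5.87%. In replicate 2 its cover of 5.84% was above that of all windows from 5 to 15 Mb except 11000001 to 12000000. These ranges were read off the same windows, so their difference is a description with no test.

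The window with the highest cover in the combined list was 14000001 to 15000000, where 72 regions covered 9.12%. It was followed by 6000001 to 7000000 with 8.35% and 13000001 to 14000000 with 8.11%. The lowest was 16000001 to 17000000 with 3.11%, and the windows 1000001 to 2000000 (4.03%) and 1 to 1000000 (4.04%) came next. The low windows differed in the number and width of their regions. The first window held 27 regions with a median width of 1260 bp, whereas the window 16000001 to 17000000 held 46 regions with a median width of 360.5 bp. The densest window by number was 2000001 to 3000000, with 73 regions of median width 553 bp.

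Neither replicate list placed its highest cover where the combined list did. In replicate 1 the window 11000001 to 12000000 was the highest with 9.01%, and in replicate 2 the same window was the highest with 6.52%. The combined list covered 7.23% of it, less than replicate 1. With the replicate regions of q below 1e-20 that overlap no combined region added, which gave 973 X regions and a cover of 7.35% of X, this window rose to 10.2% and became the highest of X. This supplement was tried on the windows after the values were seen. The window 16000001 to 17000000 moved from 3.11% to 4.75% under it. Replicate 1 covered more bases than replicate 2 in 17 of 17 full windows, and the combined list covered fewer than replicate 1 in 4. The profiles of the replicates ran together, with Pearson r = 0.94 and Spearman rho = 0.926 over 17 windows of 1 Mb. Over 177 windows of 100 kb, r was 0.847 and rho 0.872, with 20 windows that were empty in 1 replicate alone. The windows share a chromosome, a pooled input control and the mapping of short reads, so these correlations are descriptions.

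**Figure D1:**
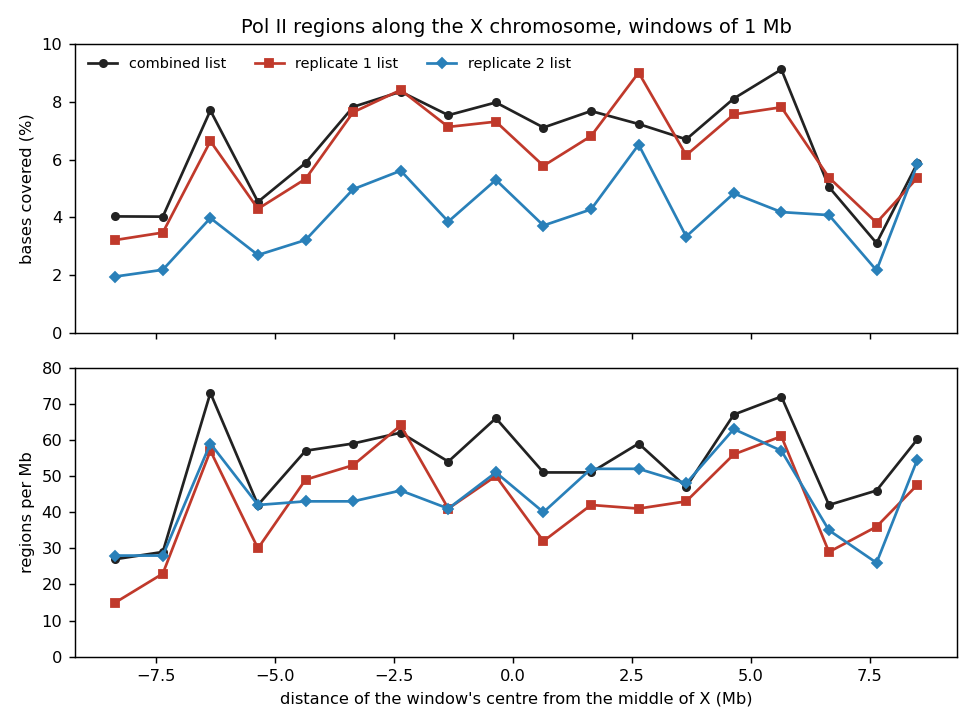
Share of bases covered by Pol II regions (upper panel, %) and regions per Mb (lower panel) in windows of 1 Mb along X, against the distance of the window's centre from the middle of X in Mb, for the combined, replicate 1 and replicate 2 lists; the last window on the right is shorter than 1 Mb and is scaled to its length. Replicate 1 lies above replicate 2 in cover in all 17 full windows, while in number the replicates cross.

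X was the most even of the compared chromosomes in the number of regions from centre to ends, though not in covered bases. Each chromosome was cut into 3 equal parts. On X the central part held 57.2 regions per Mb and the outer parts 51.6, a ratio of 1.11. The ratio was 1.19 on III, 1.27 on IV, 1.79 on II and 2.13 on V. It was also lowest on X in replicate 1 (1.10) and in replicate 2 (1.07), with exact p = 0.4 in each of the 3 lists. This p, like those that follow for chromosomes, is two-sided and comes from moving the X label over X, II, III, IV and V. The smallest value it can take is 0.2, so no comparison of chromosomes could pass 0.05. In covered bases the central part of X stood at 7.65%, the left part at 5.63% and the right part at 6.40%. The ratio of central to outer cover was 1.27, which was higher than on III and IV (1.22 on each) and lower than on II (1.39) and V (1.83). The order of X and IV turned in the replicates. In replicate 1 the ratio was 1.34 on X and 1.46 on IV, and in replicate 2 it was 1.37 and 1.38.

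Over windows of 1 Mb the coefficient of variation of cover (the SD divided by the mean) was 0.272 on X. It was 0.211 on III, 0.227 on IV, 0.329 on II and 0.449 on V, so X lay in the middle of the 5 (difference from the mean of II to V −0.0317, exact p = 1). In replicates 1 and 2 the X values were 0.282 and 0.323.

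In number per length X stood low, and in covered length it stood near the others. X held 53.5 regions per Mb in the combined list, against 47.0 on V, 66.6 on II, 121 on IV and 139 on III. This was 0.573 times the mean of II to V (exact p = 0.8). The replicates gave 42.7 and 44.8 regions per Mb on X (43.7 ± 1.48, SD, n = 2), or 0.568 and 0.614 times the mean of II to V. The regions covered 1.16 Mb, 6.56% of X, which equals the share on II (6.56%) and lies between V (5.04%) and III (7.85%). The ratio to the mean of II to V was 0.950 (exact p = 1), and 0.949 and 0.909 in replicates 1 and 2. The cover itself differed more between replicates, 6.19% and 4.01% of X.

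X regions were the widest of the 5 chromosomes by their median. The middle 50% of the combined X regions measured 280 to 1529 bp around a median of 648 bp, and 10% were wider than 3341 bp. The narrowest was 1 bp and the widest 10480 bp. The median was 569 bp on V, 481 bp on II, 344 bp on IV and 306.5 bp on III, which made the X median 1.52 times the mean of the others (exact p = 0.2). X also had the widest median in replicate 1, with 763.5 bp (1.52 times, exact p = 0.4), and in replicate 2, with 567 bp (1.46 times, exact p = 0.2). The replicate medians of X differed from each other by more than the X and V medians did in either list. When only the 50% of combined regions with the lower q were kept the X median was 2007 bp, 2.17 times the mean of II to V. When regions less than 2000 bp apart were joined the ratio fell to 1.13, with X at 1024.5 bp and V at 1020 bp.

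The width difference lay at both ends of the range: X, like V, had few narrow regions, and X had many wide ones. Regions narrower than 500 bp numbered 377 on X, or 21.3 per Mb, against 21.1 on V, 34.3 on II, 76.8 on IV and 97.4 on III. In the class of 200 to under 500 bp X held 11.3 per Mb, the lowest of the 5 chromosomes and 0.353 times the mean of II to V. The ratio was 0.692 at 500 to under 1000 bp, 0.916 at 1000 to under 2000 bp and 1.14 at 2000 to under 4000 bp. At 200 to under 500 bp X was also the lowest in replicate 2 (14.0 per Mb, with 15.7 on V). In replicate 1 V was lower in that class, 8.18 against 8.81. In the combined list V was lower than X under 200 bp (8.28 against 9.99) and at 500 to under 1000 bp (11.3 against 11.9). At 4000 bp or more X held 66 regions, 3.73 per Mb. This was the highest density of the 5 chromosomes in that class, against 3.01 on II, 2.39 on V, 2.12 on IV and 1.16 on III (ratio 1.72, exact p = 0.4). At 4000 bp or more X was again the highest in replicate 1 (ratio 1.28, exact p = 0.2). It held 3.73 per Mb there, against 2.61 to 3.14 on the others. In replicate 2 X held 1.19 per Mb, beside 1.18 on II. The combined list lacked wide replicate regions unevenly. Of the replicate 1 regions of 4000 bp or more, 87.9% on X overlapped a combined region. The share was 86.2% on V, 81.25% on II, 69.4% on IV and 47.2% on III. In replicate 2 it was 42.9% on X and 0 to 33.3% on II to V.

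Regions narrower than a single read of 36 bases numbered 48 on X, or 5.07% (6.53% of all combined regions). Leaving them out raised the X median to 695 bp and left its ratio to II to V at 1.53. Replicate 1 had 45 such narrow regions on X (5.95%, beside 6.64% of all its regions) and replicate 2 had 27 (3.40%, beside 4.65%).

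**Figure D2:**
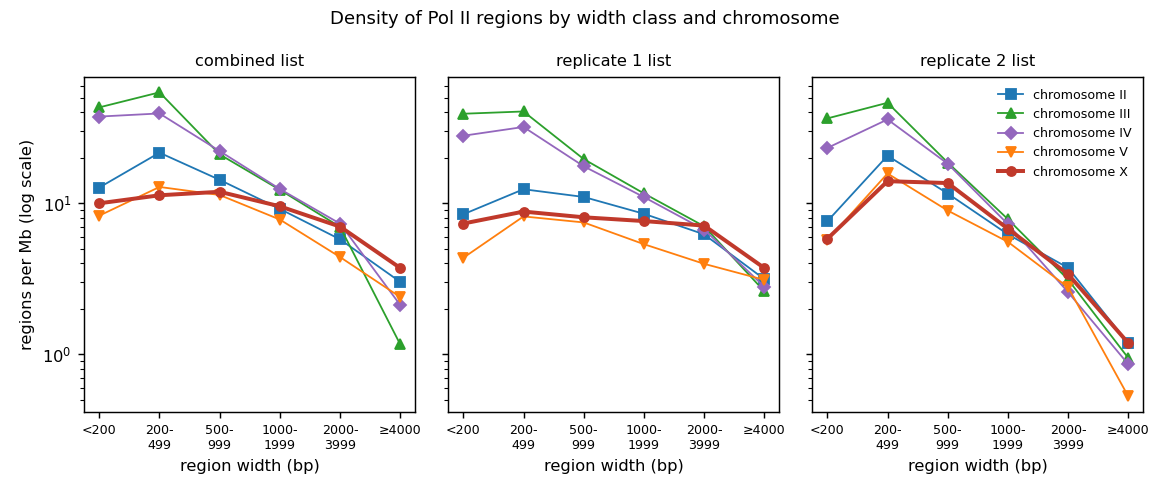
Regions per Mb (log scale) in 6 width classes on X and chromosomes II to V, 1 panel for each list. The X line starts near the line of V, below II, III and IV, and ends as the highest at 4000 bp or more in the combined list (3.73 per Mb) and in replicate 1.

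Broad regions of 2500 bp or more numbered 139 on X. This was 14.7% of the X regions, beside 7.05% of all combined regions, and they held 50.0% of the covered bases of X. Per length there were 7.85 per Mb on X, 7.01 on II, 6.52 on IV, 5.59 on III and 5.50 on V (exact p = 0.2). Replicate 1 had 145 such regions on X (19.2%, beside 9.66% of all its regions), or 8.19 per Mb, again the highest of the 5. Replicate 2 had 55 (6.94%, beside 3.63%), or 3.10 per Mb, which was below the 3.34 of II. The order of X and II therefore depended on the list.

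Median strength ran the other way from median width. By the median of −log10 q, which grows as q falls, X was the lowest of the 5 chromosomes in all 3 lists: 5.33 in the combined list (5.87 to 10.1 on II to V, exact p = 0.4), 4.69 in replicate 1 and 4.09 in replicate 2. V was close to X in both replicates, with 4.80 and 4.23. Regions with q below 1e-20 numbered 180 on X, or 19.0%, beside 24.2% of all combined regions. The share was 17.9% on V, 19.5% on II, 25.6% on IV and 27.9% on III, so X lay 3.73 points under the mean of II to V (exact p = 0.8). The direction did not hold in both replicates. In replicate 1 the share was 17.6% (133 regions, beside 20.4% of all), which lay 2.39 points under the mean of II to V, and in replicate 2 it was 12.7% (101 regions, beside 12.4% of all), 0.350 points above that mean.

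At a matched width X regions had the weakest median q-values of the 5 chromosomes in the combined list. There the median −log10 q of X was the lowest in 6 of 6 width classes. At 200 to under 500 bp it was 3.82 on X and 4.17 to 9.92 on the others. At 1000 to under 2000 bp it was 9.79 on X, against 11.9 on V, 15.9 on II, 43.5 on IV and 56.2 on III. At 2000 to under 4000 bp it was 25.8 on X, against 38.6 on V and 44.4 on II, and 89.0 and 125 on IV and III. In the class of 4000 bp or more the gap closed toward II, with 97.8 on X and 101 on II. X was the lowest in 4 of 6 classes in replicate 1 and in 4 of 6 in replicate 2. At 4000 bp or more X was above II in both, with 76.7 against 70.1 in replicate 1 and 118 against 110 in replicate 2. V stood at 61.8 and 154 there. V was also below X at 1000 to under 2000 bp in replicate 1 (6.78 against 7.79). In replicate 2 it was below X under 200 bp (2.64 against 2.67). Averaged over classes with the number of X regions as weights, the difference in median −log10 q between X and II to V was −17.2 (exact p = 0.2). The same measure for V against the other 4, with the regions of V as weights, was −10.8. In replicates 1 and 2 the X difference was −13.5 and −5.83, the lowest of the 5 in each (exact p = 0.2). A PeakSeq q depends on read depth and on the reads spread over the whole region, so these values are not a measure of Pol II per base.

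**Figure D3:**
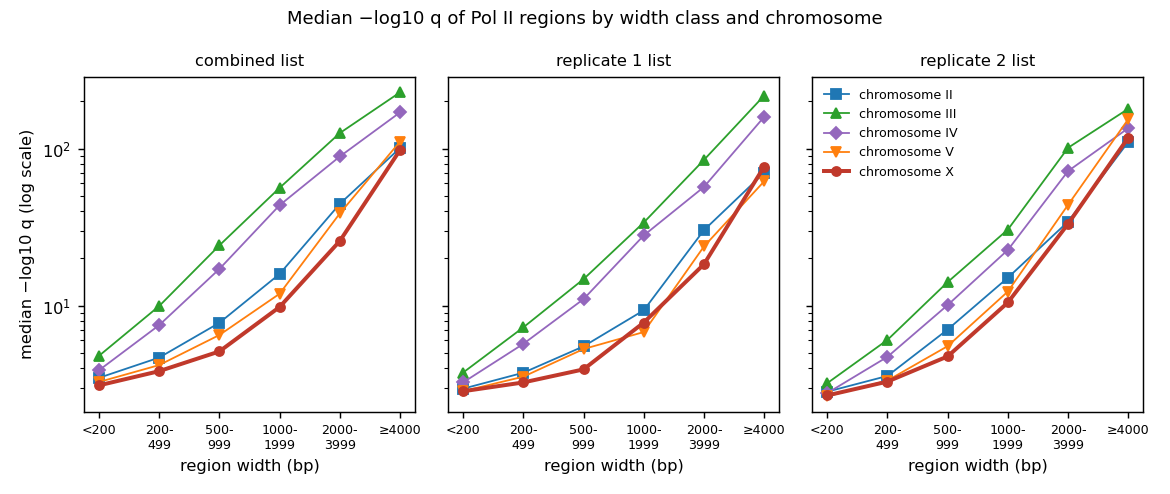
Median −log10 q (log scale) of Pol II regions by width class on X and chromosomes II to V, 1 panel for each list. X is the lowest line in all 6 classes of the combined list, and in 4 of 6 classes of each replicate.

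Strong regions on X were wide, as they were on V and II. The 90 X regions with q below 1e-50 (9.50%, beside 10.6% of all combined regions) had a median width of 4211 bp, and the narrowest measured 1287 bp. The median was 3726.5 bp on V, 3602 bp on II, 2324 bp on IV and 1934.5 bp on III, and the narrowest of the 635 such regions on II to V measured 383 bp. The share of regions with q below 1e-50 was 8.75% on V, 8.76% on II, 11.3% on IV and 11.6% on III, so X lay between II and IV. In replicate 1, 70 X regions had q below 1e-50 (9.26%, beside 9.16% of all its regions), and in replicate 2, 42 did (5.30%, beside 4.72%). No combined X region narrower than 1000 bp had q below 1e-50, where II to V together had 33, or 0.548% of their regions. This count was not split by chromosome, so it does not set X apart from II or V. Of the 139 broad X regions, 79 had q below 1e-50 (56.8%, Wilson 95% interval 48.5 to 64.8). The share was 59.1% on V, 63.6% on II, 92.1% on IV and 98.7% on III (exact p = 0.6 for X). Width and q come from the same reads, so they are not independent measures.

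X regions stood apart from each other. The median gap between neighbours was 6327.5 bp, against 5351.5 bp on V, 4246 bp on II, 2167 bp on III and 1674.5 bp on IV (ratio 1.88, exact p = 0.2). The gap medians of X in the replicates were 7276 and 7364.5 bp (7320 ± 62.6, SD, n = 2). In both replicates V had the longer median gap, 8511 and 7747 bp, so X was not the highest there (exact p = 0.8 in each). The middle 50% of combined X gaps ran from 1445 to 21046 bp. The smallest gap was 201 bp on X and 200 to 203 bp on II to V, so regions closer than this stand as 1 line in the list.

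The share of close neighbours was lowest on X in each list. Gaps under 1 kb numbered 198, or 20.9% of the X gaps, against 22.8% on V, 25.5% on II, 36.1% on III and 40.5% on IV. X was the lowest of the 5 in replicate 1 (20.1%, exact p = 0.4) and in replicate 2 (17.9%, exact p = 0.6) as well. When regions less than 2000 bp apart were counted as a cluster, X had 674 clusters, of which 489 (72.6%) held a single region. A cluster held 1.41 regions on average on X, 1.48 on V, 1.56 on II, 1.92 on III and 2.14 on IV. In replicate 2 V was lower than X, with 1.39 against 1.40. The largest X cluster held 6 regions within 13501 bp, at 9925418 to 9938918. The largest held 7 regions on V, 13 on II, 17 on IV and 18 on III. Allowing 10000 bp between neighbours, the largest X cluster held 14 regions, at 7290622 to 7341219, and the largest of V held 13.

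At the other end, gaps of 50 kb or more numbered 95 on X, or 10.0%, close to the 10.1% of V and above the 5.62% of II. They took up 44.8% of the length of X, against 51.2% of V and 35.7% of II. Gaps of 100 kb or more numbered 22 on X and 34 on V. The gaps of X were also the least uneven relative to their mean. Their coefficient of variation was 1.60 on X, 1.63 on III, 2.05 on V and 2.12 on both II and IV, and X was the lowest in replicates 1 (1.60) and 2 (1.55) too (exact p = 0.2 in each list).

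The longest X gap ran from 1627363 to 1977967, 350605 bp. Replicate 1 had no region in it and replicate 2 had 1, of 87 bp (q = 2.47e-03). The next gap, 1124381 to 1335102, held 3 regions of replicate 1 that summed to 111 bp. The gaps 15866400 to 16024478 and 12206141 to 12362853, of 158079 and 156713 bp, were empty in both replicates. The last of the 5 longest, 12018233 to 12158758, held 1 replicate 1 region of 8 bp. Places where short reads do not map would also appear as gaps, and mappability was not examined here.

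**Figure D4:**
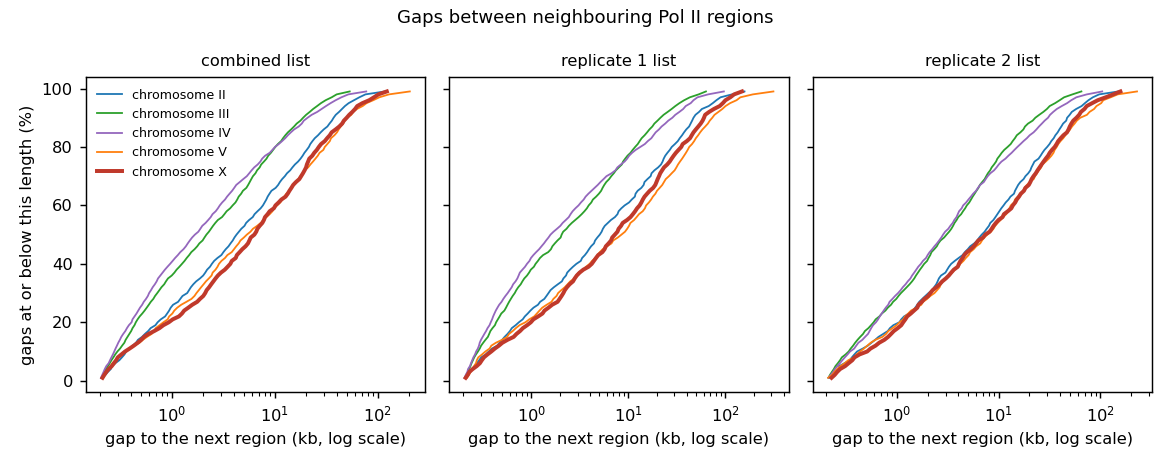
Share of gaps (%) at or below a given length (kb, log scale) between neighbouring regions on X and chromosomes II to V, 1 panel for each list. Over most of its range the X curve lies to the right of those of III and IV in each panel and close to that of V, with medians of 6327.5 bp on X and 5351.5 bp on V in the combined list.

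Recovery in the replicates was close to that of the whole list. Of the 947 combined X regions 424 overlapped regions of both replicates by at least 1 bp (44.8%, Wilson 95% interval 41.6 to 48.0), beside 44.9% of all combined regions. A further 236 (24.9%, beside 26.8%) overlapped replicate 1 alone and 133 (14.0%, beside 12.2%) replicate 2 alone. The remaining 154 (16.3%, beside 16.1%) overlapped neither. These classes differed in width and q. The median width was 1535 bp for regions in both, 357 bp for replicate 1 alone, 492 bp for replicate 2 alone and 192.5 bp for neither. The median q was 7.22e-16, 5.71e-05, 2.60e-04 and 1.82e-03 in the same order. The combined list was made from the replicates' own reads, so these shares do not test it independently.

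Given their width, a smaller share of X regions than of the pooled regions of II to V was found in both replicates in each of the 6 classes. At 200 to under 500 bp 20.0% of X regions were in both, against 39.9% on II to V, and at 500 to under 1000 bp 40.8% against 64.7%. X was the lowest of the 5 chromosomes in these 2 classes (exact p = 0.4 in each) and in no other class. At 1000 to under 2000 bp the shares were 71.6% and 81.7%, and at 4000 bp or more 97.0% and 97.3%. If II to V had the width makeup of X, 57.0% of their regions would be in both, with 45.5% on V, 49.2% on II, 60.1% on IV and 67.0% on III. Given their q, the order turned in all classes but the lowest. Between 1e-10 and 1e-05 51.3% of X regions were in both against 30.0% on II to V, and between 1e-20 and 1e-10 88.1% against 69.8%. Between 1e-05 and 0.01 the shares were 9.29% and 2.75%, and below 1e-50 98.9% and 99.5%. Within each q class X regions had the larger median width, such as 618 against 282 bp between 1e-10 and 1e-05. Between 1e-20 and 1e-10 it was 1274 against 471.5 bp. An overlap of 1 bp was enough, so these shares of regions in both replicates are not at equal width. The chromosomes II to V differed widely among themselves: V had 44.7% and 86.8% in the classes of 1e-10 to 1e-05 and 1e-20 to 1e-10, close to X.

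**Figure D5:**
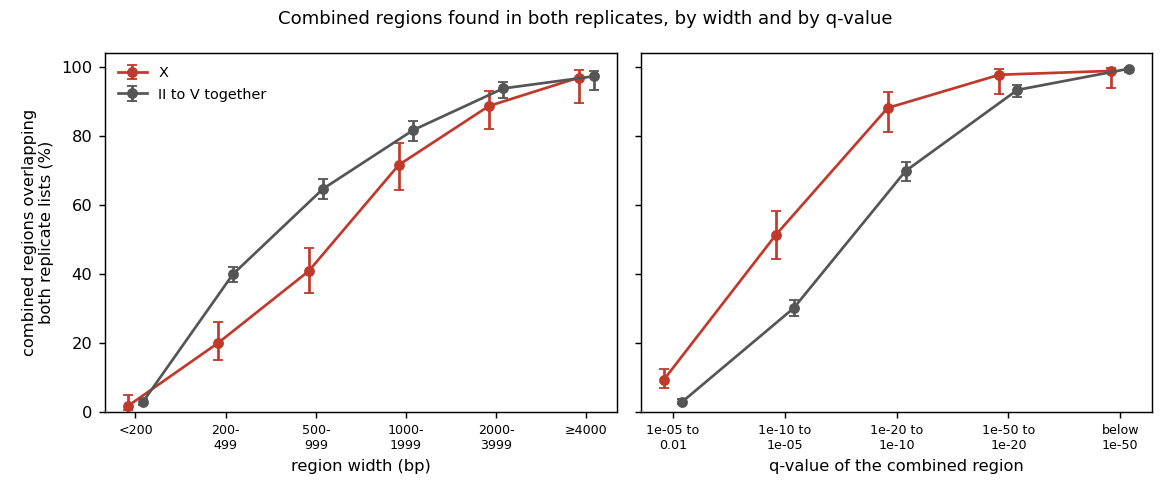
Share of combined regions (%) that overlap regions of both replicates, by width class (left) and by q class (right), for X and for II to V together; bars are Wilson 95% intervals, which cover counting error only. X lies below II to V by width (20.0% against 39.9% at 200 to under 500 bp) and above by q in the 4 classes of 1e-50 or more (51.3% against 30.0% between 1e-10 and 1e-05), but not below 1e-50 (98.9% against 99.5%).

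Between the replicates themselves, 446 of the 756 replicate 1 regions on X overlapped replicate 2 (59.0%, interval 55.5 to 62.4, beside 57.8% of all). In the other direction 537 of 793 overlapped (67.7%, interval 64.4 to 70.9, beside 72.4% of all). The shared bases came to 0.519 Mb, equal to 47.4% of the X length covered in replicate 1 and 73.0% of that covered in replicate 2. Among 433 pairs on X in which each region was the other's largest overlap, replicate 1 was the wider in 84.5%, with median widths of 1630 and 732 bp. The share was 84.5% on II, 86.2% on V and 75.4% on III, with IV between II and III. The median ratio of widths within a pair was 1.96 on X and 1.52 to 1.68 on II to V. The median −log10 q of the pairs was 8.61 in replicate 1 and 6.29 in replicate 2, with Spearman rho = 0.673 and Pearson r = 0.828 across the pairs.

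Some combined X regions were broken up in a replicate. Of the 557 that overlapped replicate 2, 84 (15.1%) met several separate regions there, up to 5, and these had a median width of 4178 bp. In replicate 1 this held for 32 of 660 (4.85%). On II to V the shares were 12.1% to 14.4% in replicate 2 and 2.57% to 7.28% in replicate 1.

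The 10 X regions with the lowest q in the combined list were all found in both replicates, and all measured 4030 bp or more. The lowest, 1443320 to 1448519, was 5200 bp wide with q = 3.18e-303, and had q = 1.49e-223 in replicate 1 and 5.47e-88 in replicate 2. It lay in the sparse first part of X, between the 2 longest gaps of the chromosome. The next were 11964468 to 11971960 (7493 bp, q = 5.15e-295) and 10213871 to 10219576 (5706 bp, q = 2.56e-294), the latter in 3 pieces in replicate 2. The region 14789646 to 14793675, 4030 bp wide with q = 2.02e-283, was the least even of the 10 between replicates, with q = 1.36e-251 in replicate 1 and 1.85e-37 in replicate 2. The region 7950989 to 7957061, 6073 bp wide with q = 9.16e-267, was the most even, with q = 4.81e-129 and 1.20e-124. The other 5 lay at 6037362 to 6044104, 11789728 to 11793909, 8227469 to 8234073, 6088660 to 6093675 and 11603202 to 11607567, with q from 9.35e-273 to 6.69e-228. No gene is named for any region, because the gene table at hand describes another assembly.

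The widest combined X region was 12508613 to 12519092, 10480 bp with q = 4.43e-188. It was in 2 pieces in replicate 1 and in 3 pieces in replicate 2. The next was 2588980 to 2597166, 8187 bp with q = 5.47e-134, which replicate 1 held as 1 region and replicate 2 as 4 pieces. The third by width was the region at 11964468 named above, which is the only one among both the 5 widest and the 10 of lowest q. The regions 12908919 to 12916016 (7098 bp, q = 3.52e-98) and 5207775 to 5214806 (7032 bp, q = 8.73e-99) completed the 5, each in 3 pieces in replicate 2.

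The combined list lacked some of the strongest X regions of the replicates. Of 133 replicate 1 regions on X with q below 1e-20, 11 overlapped no combined region (8.27%, interval 4.68 to 14.2, beside 8.26% of all chromosomes). Of 101 such regions of replicate 2, 27 did (26.7%, interval 19.1 to 36.1, beside 29.4%). Over all strengths, 659 of the 756 replicate 1 regions on X overlapped the combined list (87.2%, beside 88.6% of all chromosomes), and 667 of the 793 of replicate 2 did (84.1%, beside 86.1%). The shares on X were thus near those of the whole lists. The missing regions with q below 1e-20 held 80.1 kb of X in replicate 1 and 113 kb in replicate 2.

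Of the 11 strong replicate 1 regions missing from the combined list 10 overlapped replicate 2, and of the 27 of replicate 2 12 overlapped replicate 1. Over all chromosomes these counts were 115 of 124 and 140 of 260. Over all strengths 15 replicate 1 regions on X overlapped replicate 2 and no combined region, of which 9 had q below 1e-50. Over all chromosomes 109 of the 674 replicate 1 regions with q below 1e-50 did so, and on X 9 of 70. The counts were 13 of 62 on II, 27 of 165 on III, 19 of 153 on IV and 11 of 67 on V, so such regions were not particular to X. The strongest, 16790848 to 16801533, was 10686 bp wide with q = 3.32e-301 in replicate 1 and 1.70e-68 in replicate 2. It would have been wider than every X region of the combined list. The region 13348298 to 13351847 had q = 5.73e-299 and 2.55e-102, and 11409066 to 11417040 had q = 4.95e-263 and 6.39e-148. The widest X region of replicate 1, 11464276 to 11483308, measured 19033 bp with q = 2.03e-161, met 4 regions of replicate 2, the strongest with q = 9.90e-101, and had no counterpart in the combined list. It lies with 11409066 to 11417040 in the window that was highest in both replicates and not in the combined list.

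Some strong X regions were listed in 1 replicate only. In replicate 1 the region 4968936 to 4972251, 3316 bp, had q = 1.42e-278 and overlapped neither replicate 2 nor the combined list. The next 2 outside replicate 2 were far weaker, at 2328917 to 2329308 (q = 4.37e-19) and 15278889 to 15281739 (q = 5.25e-18), and both overlapped combined regions. In replicate 2 the 3 strongest outside replicate 1 were 9342912 to 9348256 (5345 bp, q = 3.79e-275), 6740844 to 6745136 (4293 bp, q = 1.71e-268) and 2969163 to 2973135 (3973 bp, q = 2.02e-220). None of these overlapped a combined region. A region missing from a list may have failed the q limit or been dropped before deposit, and the files do not separate these.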

How the data were processed

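Reads of 36 bases were aligned with Eland, per the deposited investigation file, in a version not given in the sources used here. Read counts are those of the authors' deposited sample table, with the 2 runs of each input summed. Regions were called with PeakSeq, and their values are q-values in WS220 coordinates, per the file headers. The authors' sample table names the merged input as control for all 3 lists and the merged ChIP alignments as source of the combined list. Samples were grouped by title.

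Widths, gaps, cover, windows and overlaps (at least 1 bp) were computed from the lines with scipy 1.17.1, pandas 2.3.3 and numpy 2.4.6 under Python 3.11.15. The end of the last region in the 3 lists stood for chromosome length (17714712 bp for X). X was compared with the mean of II to V by a two-sided exact permutation of the X label over 5 chromosomes. Intervals of shares are Wilson 95% intervals and cover only counting error. The code was tested on simulated data. The members, lists and tests were chosen with earlier results of these data known. Named regions are the 10 combined X regions of lowest q, the 5 widest and the 3 of lowest q in each replicate outside the other; other regions were chosen after their values were seen. The alternatives tried were each replicate's list alone, leaving out regions under 36 bp, the stronger 50%, joining regions less than 2000 bp apart, other q limits and windows, stricter overlap, and added strong replicate regions. Chromosome I was not among the compared chromosomes. Shares given for all regions of a list count every line, those on X and those outside the 5 compared chromosomes included.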

Additional observations from a re-analysis of the deposited data

How the results depend on the processing

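Of 49 values recomputed under other settings, 45 counted as unchanged. For the comparisons of chromosomes this means only that the direction was kept, since no p could pass 0.05, and sizes moved: over the other settings the ratio of X to II to V ran from 0.418 to 0.749 for regions per Mb, 1.13 to 2.17 for median width, 0.771 to 0.951 for cover and 1.33 to 1.83 for median gap. Using each replicate's list alone, so leaving out the other, gave 0.568 to 0.614, 1.46 to 1.52, 0.909 to 0.949 and 1.44 to 1.69 in the same order. The difference in window variation, −0.0317, was −0.0777 to −0.0508 there, and that in −log10 q at matched width, −17.2, was −13.5 to −5.83. The difference in the share of regions with q below 1e-20 was −3.73 points and reversed to 0.350 without replicate 1 (−2.39 without replicate 2). The share of combined X regions in both replicates, 44.8%, was 18.9% when the overlap had to reach 50% of both regions, and 57.1% in the stronger 50% of each list. The cover of 16000001 to 17000000 was 4.75% with strong replicate regions added, a setting chosen for the windows after seeing the data. A window counted as unchanged if its cover moved by less than the SD between the replicates. Only the windows named as highest and lowest in the combined list were counted. The window 11000001 to 12000000, which rose from 7.23% to 10.2%, was not among them. No paired analysis was possible because the lists hold no value per region for the inputs and no comparison between groups of samples was made. Depth limits the lists to places that passed q of 0.01, so absence from a list is not absence of Pol II.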
